A study of Mus musculus with 14 samples.

Results

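The clustered protocadherin genes of the mouse were described here by the CTCF and H3K27ac peaks around them. The 58 genes were taken from a fixed list of gene symbols, with no measured value used: 12 alpha genes (Pcdha1 to Pcdha12), 22 beta genes (Pcdhb1 to Pcdhb22), 19 gamma genes of the a and b types (Pcdhga and Pcdhgb) and 5 C-type genes (Pcdhac1, Pcdhac2, Pcdhgc3, Pcdhgc4 and Pcdhgc5). All of them lie in chr18:36900000-37900000 (GRCm38), which held 100 of the 86652 CTCF sites found over the genome.

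Clustered protocadherins are cell adhesion proteins of the neuronal surface. In the alpha and gamma clusters, each variable first exon has its own promoter and is spliced to constant exons shared by the cluster, whereas the beta genes have no shared constant exons. A neuron chooses few of the variable promoters, largely at random, while the C-type genes are used more widely. CTCF, a zinc finger DNA-binding protein that anchors chromatin loops, is known to bind at the variable promoters, inside some first exons and at distal enhancers, and the direction of its motif matters for which sites form loops with each other.

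Chromatin immunoprecipitation followed by sequencing (ChIP-seq) was done on E14Tg2A mouse embryonic stem cells that were wild type (WT) or carried the CTCF K20R mutation, in which lysine 20 is replaced by arginine, introduced with CRISPR/Cas9. Day 0 cells were kept on mitomycin C-inactivated mouse embryonic fibroblast feeders with LIF and 2i, and day 4 cells were embryoid bodies grown in hanging drops without LIF. CTCF was mapped in 2 libraries of each genotype on each day (8 in all, described in the study's methods as biological replicates), and H3K27ac, acetylation of histone H3 that marks active regulatory DNA, in 1 library of each genotype at day 4. The labels do not give the number of clones behind a genotype, so a difference between genotypes cannot be told apart from a difference between clones.

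The 8 CTCF peak lists held 41360 to 77657 peaks, 52698 to 77657 in WT and 41360 to 52076 in K20R. Overlapping peaks were merged into sites. In the window, 76 of the 100 sites (76%) were called in all 8 lists, against 42.1% of sites over the genome. Of 2415 stretches of 1 Mb with at least 1 site in all 8 lists, the median held 12 such sites and only 2 held 76 or more. Promoter sites, with the strongest summit within 2 kb of a listed start, made up 62 of the 100. A further 23 lay in a first exon but over 2 kb from every listed start (distal exon sites), 5 between genes, 3 in cluster introns, 1 over a shared exon and 6 in neighbouring genes. Reads mapping equally well to near-identical copies are lost under the mapping quality filter used by the authors, so levels at the most similar first exons are uncertain.

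**Figure D1:**
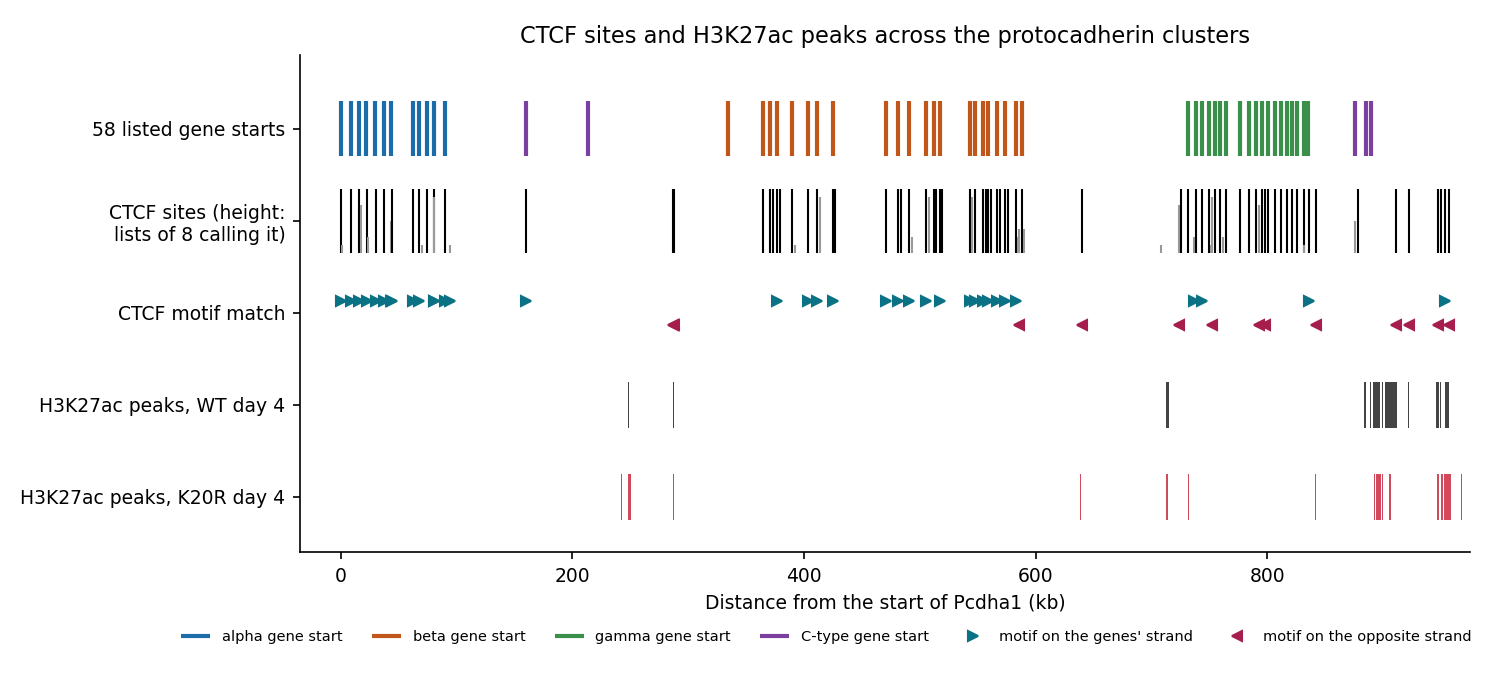
Positions across the window, in kb from the start of Pcdha1, of the 58 listed starts, the 100 CTCF sites (bar height, number of the 8 lists that called the site), CTCF motif matches by strand, and H3K27ac peaks at day 4. CTCF sites track the starts of the alpha, beta and gamma genes, whereas H3K27ac peaks lie mostly at the ends of the clusters and in the gene downstream.

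A CTCF summit lay near the start of nearly every variable exon in every library. A CTCF summit lay within 2 kb of the start of 53 of the 58 genes (91.4%) in all 8 lists, against 19.5% of 21938 protein-coding genes. These 53 were all 12 alpha genes, 21 of the 22 beta genes (all but Pcdhb1), all 19 gamma a and b genes, and Pcdhac1. Pcdhb1, the most 5′ beta gene, had no such summit in any list, and neither did the C-type genes Pcdhac2, Pcdhgc4 and Pcdhgc5. Pcdhgc3 stood between these groups, with a weak site 63 bp upstream of its start (chr18:37806164-37806478) called in 4 lists. Its fold enrichment was 5.60 in the first K20R library at day 0, 12.5 and 5.20 in WT at day 4 and 5.47 in the second K20R library at day 4. Both genotypes and both days thus had a summit within 2 kb of every alpha and every gamma a and b start. This distance also takes in summits inside the first exon. At Pcdha8 and Pcdhga12 the summit was inside the first exon in every list. At Pcdha7 no peak covered the stretch upstream of the start in several lists, both K20R lists of day 4 among them. Among 12 protocadherin genes outside the clusters, only Pcdh1, Pcdh7 and Pcdh8 had a promoter summit in all 8 lists. Pcdh18 had it in 5 lists and Pcdh19 in 2 (WT at day 0), and the other 7 (Pcdh9, Pcdh10, Pcdh11x, Pcdh12, Pcdh15, Pcdh17 and Pcdh20) had none.

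The 3 clusters differed in where the summits sat. Each summit was assigned to the nearest listed start, and a gene was counted where any list had the summit. Alpha genes had a summit just upstream of the start (median -112 bp, negative being upstream, in 11 genes over all lists) and another inside the first exon (median 530.5 bp downstream, all 12 genes). Beta genes had a summit at a median of -71.5 bp from the start (21 genes). Another lay deep in the exon, a median of 2199 bp downstream, in 16 genes (10 to 15 in a single list). The summits deep in the first exon of Pcdhb15 lay nearer the start of Pcdhb16, so Pcdhb15 is not among the 16. They were found in every list but the first K20R list of day 4. Gamma genes had mainly the upstream summit (median -80 bp, 18 genes), with an early exon summit in 4 genes and a distal exon summit in 3. The C-type gene Pcdhac1 had a summit near 178 bp upstream, and Pcdhgc3 a distal exon summit a median of 2511 bp downstream.

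**Figure D2:**
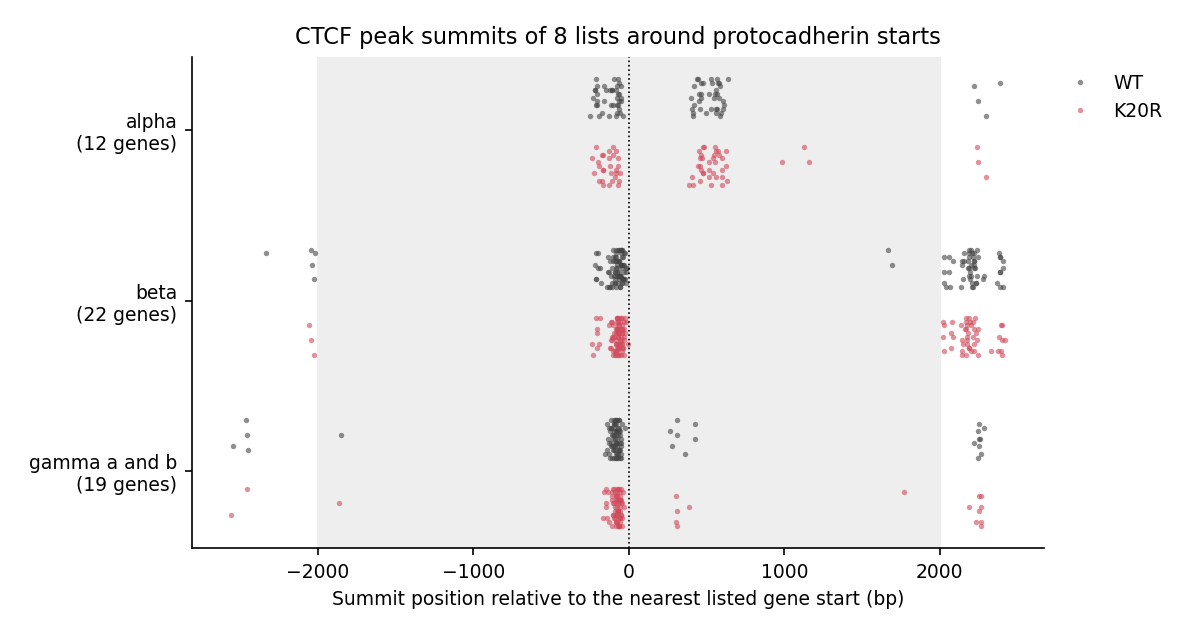
Distance in bp from each CTCF summit to the nearest listed start, by cluster, each point being a peak of a WT (grey) or K20R (red) list, with the 2000 bp on either side of the start shaded. Alpha summits fall in upstream and early exon groups (medians -112 and 530.5 bp), beta summits upstream and deep in the exon (-71.5 and 2199 bp), and gamma summits mainly upstream (-80 bp).

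Upstream summits of alpha genes were fewer in K20R lists on both days. They were found at 11 and 9 of the 12 genes in WT and at 7 and 7 in K20R at day 0, and at 10 and 10 against 8 and 7 at day 4. At Pcdha5 and Pcdha6 they were present in all 4 WT lists and absent from all 4 K20R lists, a pair of genes chosen after their values were seen. The stretch upstream of the start was nevertheless covered by a peak at 11 and 10 genes in WT and 11 and 10 in K20R at day 0, and at 11 and 11 against 10 and 10 at day 4. A single peak spanned the upstream and the early exon positions at 5 and 1 genes in WT and at 6 and 5 in K20R at day 0, and at 2 and 2 against 4 and 6 at day 4. Such a wide peak has a single strongest summit, so a missing summit here is not a missing peak, and the part of peak merging in the difference was not tested.

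Promoter sites with a CTCF motif match all had it on the strand of the genes. The motif was a 17 bp matrix learned from the WT day 0 peaks of other chromosomes, searched on both strands within 100 bp of the summit, at a score that 5% of shifted control windows passed. It was found at 33 of the 62 promoter sites, all 33 on the genes' strand: 13 of 16 alpha, 16 of 22 beta, 3 of 22 gamma and 1 of 2 C-type sites. Only the strongest summit of a site was searched. At several alpha sites (Pcdha1, Pcdha4, Pcdha5, Pcdha6 and Pcdha12) it lay in the early exon, so the upstream position was not searched there. Of the 23 distal exon sites 3 had a match, all on the opposite strand. Of the 15 sites elsewhere 12 had one, 10 of them on the opposite strand. The window as a whole had matches at 48 of 100 sites, against 76.5% of all CTCF sites. Within 50 bp, where the same share of shifted windows sets another score, matches rose to 43 of 62 promoter sites (42 on the genes' strand) and 5 of 23 distal exon sites (0 on it). At a score that only 1% of shifted windows passed, matches within 100 bp were left at 2 promoter sites, both alpha, at 0 beta, gamma and C-type promoters, and at 10 of the 15 sites elsewhere. The first exons are copies of each other, so these matches are not independent, and the absence of a match says only that no stretch of the window reached the score.

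Most protocadherin sites were called in all 4 lists of a day. At day 0, 0 of the 85 sites called in both WT lists were in neither K20R list (lost, background 7.69%). Of the 84 called in both K20R lists, 0 were in neither WT list (gained, background 0.426%). All 4 lists called 84 of the 100 sites (43422 of 86652 over the genome), and 13 had a mixed pattern. At day 4, 3 of the 85 sites in both WT lists were lost in K20R (background 18.8%). Of the 77 in both K20R lists, 1 was gained (background 0.536%). All 4 lists called 76 (38295 of 86652 over the genome), and 13 were mixed. With 2 libraries against 2, the smallest p an exact permutation test allows is 0.333, so these call patterns are given with no test.

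The 3 sites lost at day 4 were weak sites. The site 83 bp upstream of Pcdha7 (chr18:36973599-36973859) had fold enrichments of 6.10 and 6.08 in WT at day 4, and at day 0 8.27 in WT and 4.65 in K20R, each in the first library only. The site 7914 bp upstream of Pcdhga1 (chr18:37653674-37653994) had 17.7 and 8.29 in WT and 6.11 and 6.38 in K20R at day 0, then 7.93 and 5.66 in WT at day 4. The site 2548 bp upstream of Pcdhga8 (chr18:37723018-37723379) had 12.8 and 11.7 in WT and 6.15 and 8.01 in K20R at day 0, then 5.70 and 5.69 in WT at day 4. Both of the latter were therefore still called in K20R stem cells, below the WT values. The gained site, 1126 bp downstream of the Pcdha4 start (chr18:36953782-36953961), was called at fold enrichments of 4.55 and 4.66 in K20R at day 4 and in no other list. When each list was shortened to its 41360 best peaks, neither day 4 pattern was left (0 lost, 0 gained).

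Strength was compared at the 76 sites called in all 8 lists. Each value below is the peak caller's fold enrichment at the site divided by the library's median over the 36440 sites called in all 8 lists (the relative strength), so that 1 is a typical site of that library. Differences are log2 (K20R minus WT) with their standard error, tested with limma over all 36440 sites with Benjamini-Hochberg adjustment at 0.05. Higher and lower are thus relative to the typical site of the same library. A change of CTCF shared by all sites would not show. At day 0, 18 sites were higher in K20R (background 12.1%) and 7 lower (background 13.9%), and at day 4, 16 were higher (background 14.6%) and 9 lower (background 14.5%). The median difference was 0.24 over the 76 sites and -0.03 over all sites at day 0, and 0.09 and 0.03 at day 4. Both K20R libraries lay above both WT libraries at 39 sites at day 0 (background 31.8%) and at 31 at day 4 (background 35.6%), and below them at 19 (background 34.1%) and 23 (background 31.7%). The spread of the libraries moved with genotype: the range from the 5th to the 95th percentile of log2 fold enrichment over all sites was 2.04 to 2.46 in WT libraries and 3.06 to 3.42 in K20R libraries, and its part in these differences was not tested. After quantile normalization, which gives all libraries the same distribution, 18 sites were higher (background 10.9%) and 3 lower (background 9.61%) in K20R at day 0, and 10 higher (background 9.59%) and 5 lower (background 9.03%) at day 4.

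Fewer sites passed by the reads at the peak alone than by fold enrichment. Fold enrichment is the pileup (reads stacked at the summit) over a local background that the caller estimates, with a small constant added to both. Pileup and background could be recovered from the lists. By pileup alone, 0 of the 76 sites were higher in K20R at day 0 (background 0.623%) and 2 lower (background 4.9%), and at day 4, 6 were higher (background 4.99%) and 5 lower (background 10.2%), while 17 of the 76 had an unadjusted p under 0.05 at day 0. The direction of the pileup difference matched that of fold enrichment at 24 of the 25 sites called at day 0 and at all 25 called at day 4. The background exceeded 1.5 reads in both WT libraries at 13 of the 18 sites higher in K20R at day 0, at 0 of the 7 lower, and at 7 of the 51 sites that did not pass the test. At day 4 these were 4 of the 16 sites higher in K20R, 0 of the 9 lower and 4 of the 51 others. The part of the background in the calls was not tested. In each WT day 0 library, 27.6% of the 76 sites had such a background (20.1% and 18.4% of all sites). In each K20R day 0 library 10.5% did (11.8% and 11.7% of all sites).

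**Figure D3:**
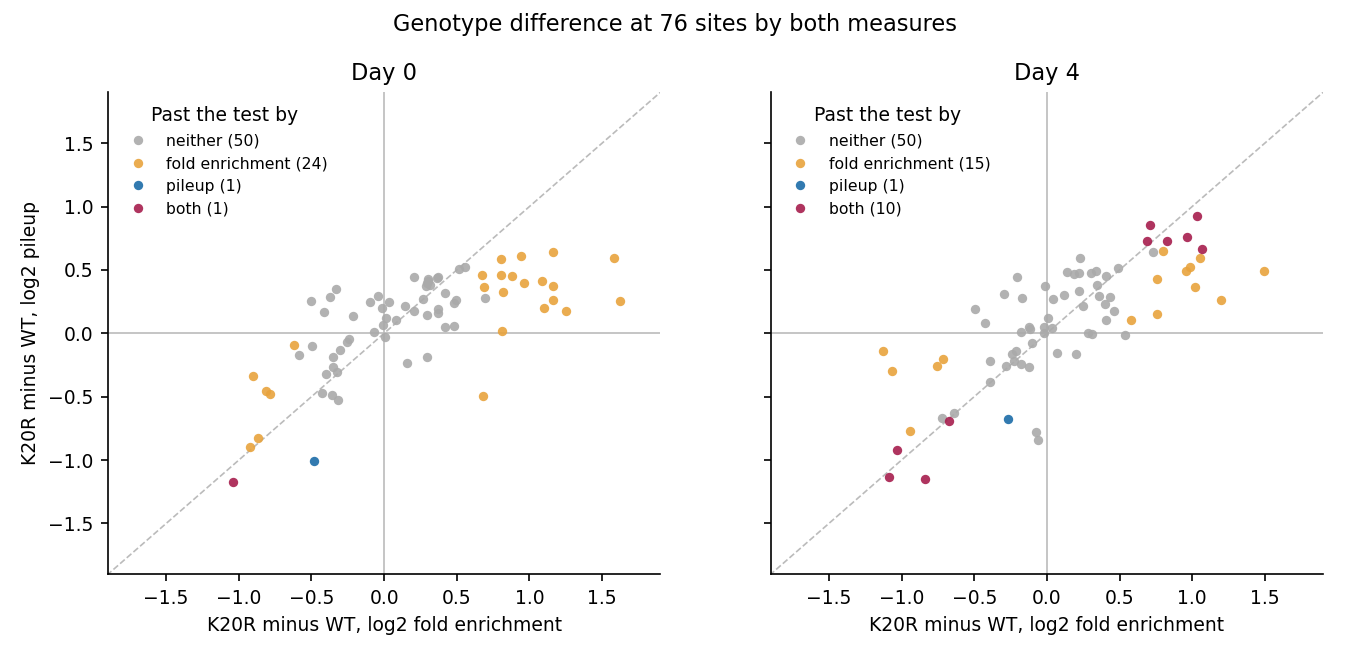
Difference between K20R and WT (log2) by fold enrichment and by pileup at the 76 sites, day 0 and day 4, each point a site, coloured by which measure passed the limma test, with a dashed line of equality. At day 0, 24 sites passed by fold enrichment only and 1 by both, and at day 4, 15 and 10.

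At day 4, 10 sites passed the test by both measures. Higher in K20R were the promoter sites of Pcdhb2, Pcdhb18, Pcdhgb5, Pcdhgb6 and Pcdhgb7 and the distal exon site of Pcdhb4, and lower were the promoter sites of Pcdhb9, Pcdhb13 and Pcdhb20 and the distal exon site of Pcdhb20. At day 0 a single site did, the distal exon site of Pcdhga8, which was lower in K20R. By pileup only, the site 202 bp upstream of Pcdha11 was lower in K20R at day 0 and day 4, by -1.01 and -0.68 (log2 pileup). Its relative strength was 0.609 and 0.685 for WT versus 0.447 and 0.478 for K20R at day 0, and 0.522 and 0.625 against 0.476 and 0.475 at day 4, non-overlapping on both days but short of the test by fold enrichment. With quantile normalization of the pileup, the distal exon site of Pcdhb4 was the 1 site higher in K20R at day 4 (background 1.83%), and limma called 0 lower (background 2.67%). At day 0 it called 0 higher (background 0.0549%) and 0 lower (background 0.302%), with 9 sites at an unadjusted p under 0.05.

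**Figure D4:**
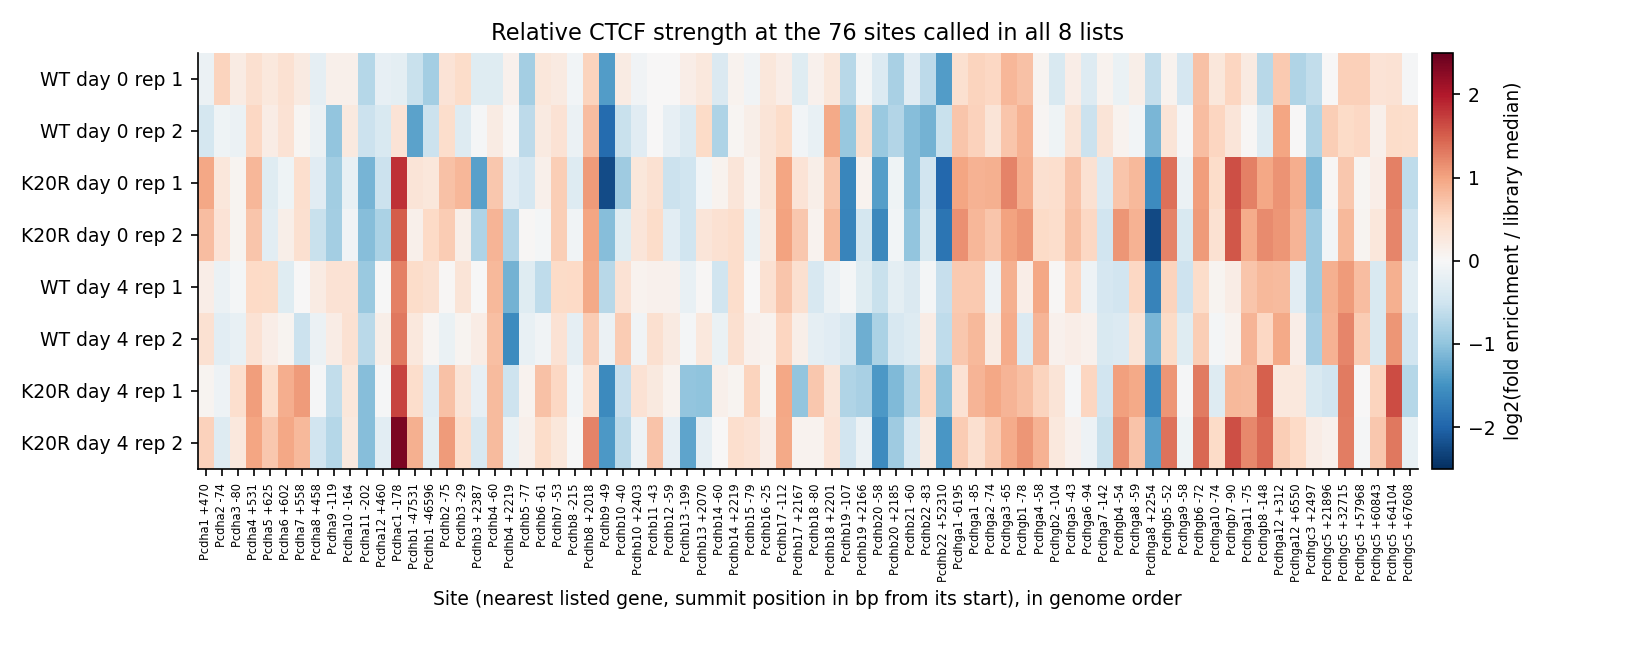
Relative strength (fold enrichment over the library's median, log2 colour scale) of the 76 sites called in all 8 lists, in genome order from left to right, with a line for each of the 8 libraries. Gamma promoters have a median difference of 0.37 at day 0 and 0.23 at day 4 between K20R and WT, and alpha promoters -0.29 and 0.01.

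Alpha promoter sites had no common direction. Of the 12 called in all 8 lists, 1 was higher (background 12.1%) and 0 lower (background 13.9%) in K20R at day 0 (median difference -0.29). At day 4, 3 were higher (background 14.6%) and 1 lower (background 14.5%), with a median of 0.01. None of these passed by pileup. The 3 strongest were the sites of Pcdha4, Pcdha7 and Pcdha6, labelled by their strongest summit, in the early exon. An alpha site could span the upstream and early exon positions, and each library's value is its strongest peak at either. At Pcdha4 (531 bp downstream, chr18:36952258-36953615) the relative strength was 1.33 and 1.42 for WT versus 1.78 and 1.61 for K20R at day 0, and 1.42 and 1.29 against 2.07 and 1.98 at day 4, a day 4 difference of 0.58 ± 0.19 (adjusted p = 0.0393). At Pcdha7 (558 bp downstream, chr18:36973937-36974755) it was 1.17 and 1.04 for WT versus 1.33 and 1.32 for K20R at day 0, and 1.01 and 0.693 against 2.1 and 1.76 at day 4 (1.20 ± 0.22, adjusted p = 0.00328). At Pcdha6 (602 bp downstream, chr18:36967313-36968466) it was 1.31 and 1.28 for WT versus 0.932 and 1.11 for K20R at day 0, and 0.815 and 1.04 against 1.87 and 1.96 at day 4 (1.05 ± 0.20, adjusted p = 0.00395). These sites thus stood above the WT values in both K20R libraries at day 4, whereas Pcdha6 stood below them at day 0. At Pcdha6 the strongest summit was upstream in the first WT library of day 0 (-52 bp) and the second of day 4 (-71 bp). It was in the early exon in every K20R library, so the Pcdha6 differences mix both positions. Pcdha1 rose in K20R at day 0 only: 470 bp downstream, the values were 0.906 and 0.739 for WT versus 1.95 and 1.72 for K20R at day 0 (1.16 ± 0.23, adjusted p = 0.00456), and 1.12 and 1.31 against 1.05 and 1.48 at day 4. Pcdha9 was the alpha site that was lower in K20R at day 4 (-0.94 ± 0.29, adjusted p = 0.0326), with 1.09 and 0.504 for WT versus 0.544 and 0.556 for K20R at day 0, and 1.29 and 1.14 against 0.654 and 0.608 at day 4. At Pcdha1 the strongest summit was upstream in the first WT library of day 0 (-204 bp) and the first K20R library of day 4 (-165 bp). At Pcdha9 it was in the early exon in the second WT library of day 0 (569 bp).

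Beta promoters went both ways. Of 21 sites in all 8 lists, 3 were higher (background 12.1%) and 2 lower (background 13.9%) in K20R at day 0 (median difference 0.00). At day 4, 3 were higher (background 14.6%) and 4 lower (background 14.5%), with a median of 0.01. After quantile normalization these were 4 (background 10.9%) and 0 (background 9.61%) at day 0, and 2 (background 9.59%) and 2 (background 9.03%) at day 4. The 3 strongest were those of Pcdhb17, Pcdhb4 and Pcdhb2. Pcdhb17 (112 bp upstream, chr18:37484572-37485234) had 1.12 and 1.38 for WT versus 1.98 and 2.02 for K20R at day 0 (0.69 ± 0.20, adjusted p = 0.0243), and 1.61 and 1.45 against 1.97 and 1.92 at day 4. Pcdhb4 (60 bp upstream, chr18:37307042-37307632) had 0.814 and 1.15 for WT versus 1.59 and 1.80 for K20R at day 0 (0.81 ± 0.21, adjusted p = 0.0171), and 1.76 and 1.69 against 1.73 and 1.73 at day 4, so that the genotypes met at day 4. Pcdhb2 (75 bp upstream, chr18:37294389-37294918) passed by both measures at day 4. Its values were 1.26 and 1.36 for WT versus 1.65 and 1.56 for K20R at day 0, and 1.02 and 0.894 against 1.67 and 2.09 at day 4 (0.96 ± 0.20, adjusted p = 0.00544).

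Other beta promoters higher in K20R were Pcdhb14 at day 0 and Pcdhb6 and Pcdhb18 at day 4. Pcdhb14 had 0.776 and 0.583 for WT versus 1.06 and 1.30 for K20R at day 0 (0.80 ± 0.22, adjusted p = 0.0213), and 0.710 and 0.896 against 1.10 and 1.01 at day 4. Pcdhb6 had 1.22 and 1.17 for WT versus 1.09 and 0.969 for K20R at day 0, and 0.648 and 0.937 against 1.67 and 1.37 at day 4 (0.96 ± 0.22, adjusted p = 0.00947). Pcdhb18 had 1.08 and 0.878 for WT versus 1.10 and 1.07 for K20R at day 0, and 0.755 and 0.857 against 1.59 and 1.06 at day 4 (0.69 ± 0.23, adjusted p = 0.0434, and by pileup 0.73). Of the beta promoters lower in K20R, Pcdhb9, Pcdhb19 and Pcdhb20 were weaker than a typical site in every library. Pcdhb20 had 0.786 and 0.528 for WT versus 0.382 and 0.326 for K20R at day 0 (-0.87 ± 0.23, adjusted p = 0.0177), and 0.682 and 0.576 against 0.369 and 0.334 at day 4 (-0.84 ± 0.23, adjusted p = 0.0191). Pcdhb19 had 0.615 and 0.521 for WT versus 0.325 and 0.320 for K20R at day 0 (-0.81 ± 0.21, adjusted p = 0.016), and 0.967 and 0.759 against 0.596 and 0.718 at day 4. The difference at Pcdhb19 was thus past the test at day 0, and that at Pcdhb20 on both days.

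At day 4, Pcdhb9, Pcdhb10 and Pcdhb13 were also lower in K20R. Pcdhb9, the weakest of them at day 0, had 0.379 and 0.265 for WT versus 0.212 and 0.476 for K20R at day 0, and 0.615 and 0.904 against 0.333 and 0.370 at day 4 (-1.09 ± 0.34, adjusted p = 0.0319, and by pileup -1.14). Pcdhb10 had 1.15 and 0.679 for WT versus 0.539 and 0.813 for K20R at day 0, and 1.29 and 1.55 against 0.667 and 0.624 at day 4 (-1.13 ± 0.28, adjusted p = 0.0111), but did not pass by pileup (-0.14). Pcdhb13 had 1.12 and 0.787 for WT versus 0.712 and 0.707 for K20R at day 0, and 0.879 and 0.963 against 0.506 and 0.399 at day 4 (-1.03 ± 0.22, adjusted p = 0.00647, and by pileup -0.92). All 3 had non-overlapping genotypes at day 4, and only Pcdhb13 also did at day 0.

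The distal exon sites of the beta genes included the site whose genotype difference at day 4 passed by fold enrichment, by pileup, by both after quantile normalization and by percentiles of −log10 p. At the distal exon site of Pcdhb4 (2219 bp downstream of the start, chr18:37309452-37309936) the relative strength was 1.08 and 1.02 for WT versus 0.820 and 0.598 for K20R at day 0, and 0.443 and 0.338 against 0.700 and 0.891 at day 4. Its pileup was 47 and 26 reads for WT versus 43 and 38 for K20R at day 0, and 16 and 12 against 20 and 40 at day 4. WT fell between the days by -1.44 ± 0.23 (adjusted p = 0.00329), and K20R was above WT at day 4 by 1.03 ± 0.23 (adjusted p = 0.0079), a call kept by quantile normalization, by pileup and by both together. Without the second WT library of day 4 this difference was 0.84 and no longer passed, while the fall in WT passed without any single library. The distal exon site of Pcdhb20 (2185 bp downstream) had 0.572 and 0.605 for WT versus 0.932 and 0.957 for K20R at day 0 (0.68 ± 0.19, adjusted p = 0.0232), and 0.849 and 0.759 against 0.467 and 0.543 at day 4 (-0.67 ± 0.19, adjusted p = 0.0229). By pileup its day 0 difference had the opposite sign (-0.50), and its background was 3.31 and 3.47 reads for WT versus 0.963 and 0.724 for K20R.

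Further distal exon sites passed the test between genotypes on a single day. Pcdhb3, at its distal exon site (2387 bp downstream), had 0.810 and 0.980 for WT versus 0.389 and 0.583 for K20R at day 0 (-0.90 ± 0.23, adjusted p = 0.0153), and 0.996 and 1.14 against 0.867 and 0.761 at day 4. The distal exon site of Pcdhb13 (2070 bp downstream) had 1.20 and 1.40 for WT versus 0.950 and 1.24 for K20R at day 0, and 1.03 and 1.20 against 0.501 and 0.855 at day 4 (-0.76 ± 0.26, adjusted p = 0.0476). Neither passed by pileup. The distal exon site of Pcdhga8 (2254 bp downstream, chr18:37727763-37728126) had 0.663 and 0.451 for WT versus 0.335 and 0.210 for K20R at day 0 (-1.04 ± 0.28, adjusted p = 0.0192, and by pileup -1.17), and 0.314 and 0.452 against 0.333 and 0.391 at day 4. Pcdhgc3, at its distal exon site (2497 bp downstream), had 0.649 and 0.597 for WT versus 0.464 and 0.540 for K20R at day 0, and 0.541 and 0.563 against 0.767 and 1.13 at day 4 (0.76 ± 0.22, adjusted p = 0.0256).

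More gamma promoters were higher than lower in K20R. Of 19 sites in all 8 lists, 8 were higher (background 12.1%) and 1 lower (background 13.9%) at day 0 (median difference 0.37). At day 4, 7 were higher (background 14.6%) and 0 lower (background 14.5%), with a median of 0.23. After quantile normalization, 8 were higher (background 10.9%) and 1 lower (background 9.61%) at day 0 (median 0.30). At day 4 only 3 were higher (background 9.59%), Pcdhgb1, Pcdhgb4 and Pcdhgb7, and 1 was lower (background 9.03%), Pcdhga12 (median 0.16). By pileup the medians were 0.40 and 0.44, with 0 higher at day 0 (background 0.623%) and 3 at day 4 (background 4.99%). Those 3 were Pcdhgb5, Pcdhgb6 and Pcdhgb7, and with quantile normalization of the pileup no gamma promoter passed. Pcdhgb6 (72 bp upstream, chr18:37741656-37742204), the strongest gamma promoter, had 1.67 and 1.70 for WT versus 2.05 and 2.1 for K20R at day 0, and 1.38 and 1.54 against 2.46 and 2.72 at day 4 (0.83 ± 0.19, adjusted p = 0.0085). Pcdhga3 (65 bp upstream, chr18:37673998-37674823) had 1.78 and 1.62 for WT versus 2.36 and 2.02 for K20R at day 0, and 1.85 and 1.91 against 1.81 and 1.91 at day 4, with no difference past the test. Pcdhgb7 (90 bp upstream, chr18:37751153-37751906) had 1.45 and 1.23 for WT versus 3.05 and 2.93 for K20R at day 0 (1.16 ± 0.25, adjusted p = 0.00721), and 1.14 and 1.06 against 1.74 and 3.04 at day 4 (1.07 ± 0.25, adjusted p = 0.00959). These were the 3 strongest gamma promoters, and K20R lay above WT without overlap at Pcdhgb6 and Pcdhgb7 on both days and at Pcdhga3 at day 0 only.

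Pcdhgb4, Pcdhgb5 and Pcdhgb8 were higher in K20R on both days. Pcdhgb4 had 0.893 and 1.06 for WT versus 1.62 and 2.16 for K20R at day 0 (0.94 ± 0.21, adjusted p = 0.00864), and 0.721 and 0.784 against 2.02 and 2.22 at day 4 (1.50 ± 0.21, adjusted p = 0.00121). Pcdhgb5 had 1.06 and 1.25 for WT versus 2.59 and 2.35 for K20R at day 0 (1.10 ± 0.20, adjusted p = 0.00339), and 1.46 and 1.40 against 2.14 and 2.55 at day 4 (0.71 ± 0.20, adjusted p = 0.0214). Pcdhgb8 had 0.617 and 0.796 for WT versus 1.96 and 2.25 for K20R at day 0 (1.58 ± 0.21, adjusted p = 0.00121), and 1.74 and 1.43 against 2.83 and 2.65 at day 4 (0.80 ± 0.21, adjusted p = 0.0166). At Pcdhgb8 the day 0 background was 3.31 and 2.97 reads for WT versus 0.963 and 0.962 for K20R, while the pileup was 67 and 47 against 104 and 117.

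Past the test at day 0 only were Pcdhgb2, Pcdhga6, Pcdhga8 and Pcdhga11, all higher in K20R, and Pcdhga7, which was lower. Pcdhgb2 had 0.765 and 0.933 for WT versus 1.34 and 1.36 for K20R at day 0 (0.68 ± 0.19, adjusted p = 0.0247), and 1.03 and 1.08 against 1.25 and 1.21 at day 4. Pcdhga6 had 0.798 and 0.689 against 1.30 and 1.43 at day 0 (0.88 ± 0.24, adjusted p = 0.0197), and 0.919 and 1.08 against 1.45 and 0.913 at day 4. The genotypes overlapped at Pcdhga6 at day 4 but not at Pcdhgb2. Pcdhga8 had 1.10 and 0.954 against 1.75 and 1.82 at day 0 (0.80 ± 0.20, adjusted p = 0.0134), and 1.44 and 1.25 against 1.94 and 1.63 at day 4. Pcdhga11 had 1.17 and 1.02 against 2.38 and 1.89 at day 0 (0.96 ± 0.22, adjusted p = 0.00921), and 1.62 and 1.81 against 1.74 and 2.30 at day 4. Pcdhga7 alone went down, with 1.07 and 1.26 for WT versus 0.793 and 0.718 for K20R at day 0 (-0.62 ± 0.19, adjusted p = 0.0349), and 0.752 and 0.771 against 0.716 and 0.684 at day 4.

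At day 4 only, Pcdhga2 and Pcdhgb1 were higher in K20R. Pcdhga2 had 1.43 and 1.24 for WT versus 1.85 and 1.61 for K20R at day 0, and 0.919 and 1.15 against 1.95 and 1.55 at day 4 (0.76 ± 0.21, adjusted p = 0.0211). Pcdhgb1 had 1.67 and 1.82 against 1.88 and 2.14 at day 0, and 1.12 and 0.791 against 1.69 and 2.15 at day 4 (1.02 ± 0.23, adjusted p = 0.00716). Neither passed by pileup.

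The promoter site of Pcdhac1 had the highest mean log2 fold enrichment of the window over the 8 libraries, but was not the strongest in either WT library of day 0. Those were the promoter sites of Pcdhga3 in the first library and Pcdhga12 in the second. The fold enrichment of Pcdhac1 was 21.7 and 19.2 in them, against medians of 27.3 and 15.6 over the 76 sites. This gene is the first C-type gene of the alpha cluster. Its site (178 bp upstream, chr18:37089559-37090117) had a relative strength of 0.849 and 1.27 for WT versus 3.56 and 2.87 for K20R at day 0 (1.62 ± 0.26, adjusted p = 0.00226), and 2.41 and 2.51 against 3.24 and 5.12 at day 4. The pileup was 113 and 104 reads for WT versus 190 and 149 for K20R at day 0, and 89 and 93 against 98 and 239 at day 4. The background was 4.25 and 4.46 reads in WT at day 0, against 0.963 and 0.962 in K20R at day 0, 0.921 and 0.923 in WT at day 4 and 0.788 and 0.748 in K20R at day 4. The pileup difference at day 0 was 0.26 and did not pass the test, and with quantile normalization it was -0.089.

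**Figure D5:**
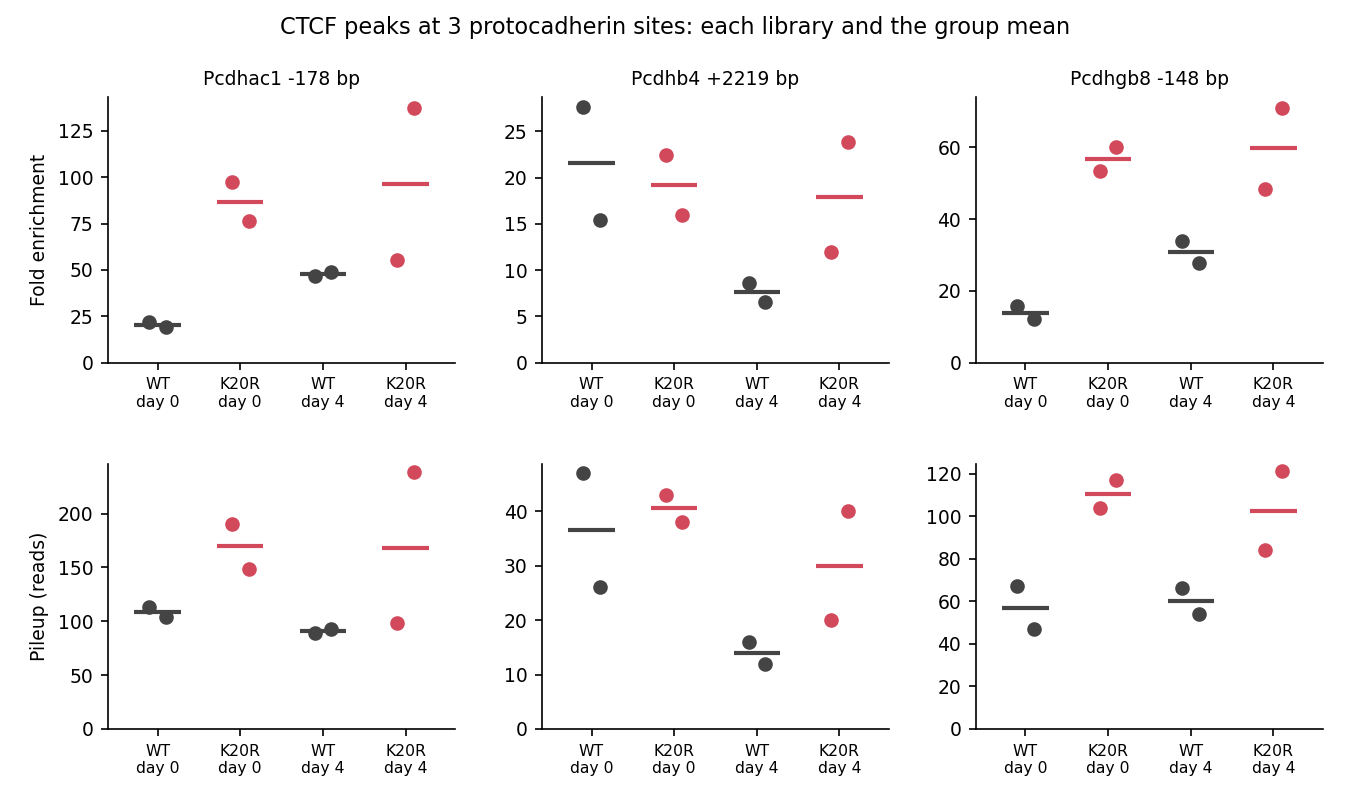
Fold enrichment and recovered pileup in each library at the promoter site of Pcdhac1, the distal exon site of Pcdhb4 and the promoter site of Pcdhgb8, with points for libraries and bars for group means. The low WT day 0 fold enrichment of Pcdhac1 and Pcdhgb8 is less marked in the pileup (113 and 104 reads against 190 and 149, and 67 and 47 against 104 and 117), while the distal exon site of Pcdhb4 is lowest in WT at day 4 in both.

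Of the sites between genes, 4 were called in all 8 lists. A pair upstream of the beta cluster lay 47531 and 46596 bp upstream of Pcdhb1 (chr18:37217086-37217795 and chr18:37218130-37218566) and overlapped an H3K27ac peak found in both genotypes at day 4. The first had 0.683 and 0.398 for WT versus 1.25 and 1.09 for K20R at day 0 (1.16 ± 0.27, adjusted p = 0.00926), and 1.38 and 1.20 against 1.35 and 1.84 at day 4. The second had 0.555 and 0.685 for WT versus 1.21 and 1.41 for K20R at day 0 (1.09 ± 0.21, adjusted p = 0.00458), and 1.32 and 1.04 against 0.817 and 0.842 at day 4. Neither passed by pileup, and the background at the first was 2.84 and 2.97 reads for WT versus 0.963 and 0.962 for K20R at day 0. Between the beta and gamma clusters, the site 52310 bp downstream of the Pcdhb22 start (chr18:37570448-37570809) had 0.382 and 0.678 for WT versus 0.255 and 0.283 for K20R at day 0 (-0.92 ± 0.27, adjusted p = 0.0255), and 0.674 and 0.642 against 0.489 and 0.363 at day 4. The site 6195 bp upstream of Pcdhga1 (chr18:37654957-37656082) had 1.33 and 1.62 against 1.99 and 2.2 at day 0, and 1.57 and 1.60 against 1.28 and 1.54 at day 4, with no difference past the test.

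Within and beyond the gamma cluster, 6 further sites passed the test between genotypes. In the intron 6550 bp downstream of the Pcdhga12 start, the values were 0.590 and 1.00 for WT versus 1.87 and 1.80 for K20R at day 0 (1.25 ± 0.26, adjusted p = 0.00604), and 0.833 and 1.12 against 1.20 and 1.41 at day 4. Over an exon shared by the gamma genes, 21896 bp downstream of the Pcdhgc5 start (chr18:37840801-37841669), they were 1.00 and 1.53 against 1.02 and 0.955 at day 0, and 1.85 and 1.84 against 0.717 and 1.08 at day 4 (-1.06 ± 0.25, adjusted p = 0.0103). WT therefore exceeded K20R at this shared exon at day 4 without overlap. The remaining 4 lay in Diaph1, a formin gene next to the cluster. The site 57968 bp downstream of the Pcdhgc5 start had 1.51 and 1.42 for WT versus 1.03 and 1.04 for K20R at day 0, and 1.70 and 1.55 against 1.00 and 0.977 at day 4 (-0.71 ± 0.19, adjusted p = 0.0156). The site 60843 bp downstream had 1.27 and 1.10 against 1.12 and 1.22 at day 0, and 0.773 and 0.771 against 1.47 and 1.59 at day 4 (0.98 ± 0.19, adjusted p = 0.00402). Neighbouring sites of this gene thus moved in opposite directions at day 4. The site 64104 bp downstream had 1.29 and 1.38 against 2.38 and 2.34 at day 0 (0.82 ± 0.20, adjusted p = 0.0122), and 1.84 and 2.14 against 3.09 and 2.50 at day 4. The site 67608 bp downstream had 0.982 and 1.36 against 0.646 and 0.695 at day 0 (-0.79 ± 0.24, adjusted p = 0.0311), and 0.837 and 0.713 against 0.610 and 0.880 at day 4.

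Between the days, WT had 9 sites higher at day 4 than at day 0 (background 9.93%) and 5 lower (background 11.5%), and K20R had 6 higher (background 8.83%) and 4 lower (background 8.2%). These are 11.8% and 6.58% of the 76 sites in WT and 7.89% and 5.26% in K20R. In WT, Pcdhac1 (1.24 ± 0.26), both sites upstream of Pcdhb1 (1.30 ± 0.27 and 0.92 ± 0.21), Pcdhgb8 (1.17 ± 0.21), Pcdhb9 (1.23 ± 0.34) and Pcdhb4 (0.83 ± 0.21) rose, as did Pcdhb22, Pcdhga4 and the Diaph1 site 32715 bp downstream of the Pcdhgc5 start. Falling in WT were the distal exon site of Pcdhb4, the distal exon site of Pcdhb18 (-0.83 ± 0.23), Pcdhgb1 (-0.89 ± 0.23), Pcdhga7 (-0.60 ± 0.19) and the Diaph1 site at 60843 bp (-0.61 ± 0.19). By pileup limma called 0 sites higher in WT at day 4 (background 0.623%), with 11 at an unadjusted p under 0.05, and 2 lower (background 2.62%), the distal exon sites of Pcdhb4 and Pcdhb20. Quantile normalization gave 15 higher (background 15.8%) and 10 lower (background 15.9%) in WT, and on the pileup 1 higher (background 3.28%) and 3 lower (background 5.43%).

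Values not given above for the sites that passed in WT were these. Pcdhb22 (83 bp upstream) had 0.640 and 0.442 in WT at day 0 and 0.961 and 1.14 at day 4 (0.98 ± 0.23, adjusted p = 0.0125), and in K20R 0.719 and 0.765 at day 0 and 1.43 and 1.17 at day 4 (0.81 ± 0.23, adjusted p = 0.0325). Pcdhb22 thus rose in both genotypes. Pcdhga4 had 1.06 and 1.04 in WT at day 0 and 1.96 and 1.81 at day 4 (0.85 ± 0.20, adjusted p = 0.0121), and 1.32 and 1.40 then 1.47 and 1.82 in K20R. Pcdhb18, at its distal exon site, had 1.22 and 1.92 in WT at day 0 and 0.907 and 0.817 at day 4, and 1.61 and 1.76 then 1.23 and 1.26 in K20R. The Diaph1 site at 32715 bp had 1.50 and 1.40 in WT at day 0 and 2.08 and 2.34 at day 4 (0.60 ± 0.19, adjusted p = 0.0411), and 1.60 and 1.76 then 2.46 and 2.41 in K20R.

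In K20R, the sites that rose from day 0 to day 4 were Pcdha5, Pcdha6 (0.91 ± 0.20), Pcdhb19 (1.02 ± 0.21), Pcdhb22, the distal exon site of Pcdhb3 (0.77 ± 0.23) and the distal exon site of Pcdhgc3 (0.90 ± 0.22). Pcdha5 (625 bp downstream) had 0.812 and 0.833 in K20R at day 0 and 1.36 and 1.60 at day 4 (0.84 ± 0.20, adjusted p = 0.0165), and 1.21 and 1.13 then 1.39 and 1.12 in WT. Those that fell were the distal exon sites of Pcdhb17 and Pcdhb20 (-0.91 ± 0.19), Pcdhga5 and Pcdhga12. The distal exon site of Pcdhb17 had 1.27 and 1.59 in K20R at day 0 and 0.508 and 1.06 at day 4 (-0.95 ± 0.30, adjusted p = 0.0476), and 0.809 and 0.954 then 1.32 and 1.11 in WT. Pcdhga5 had 1.64 and 1.68 in K20R at day 0 and 0.976 and 1.08 at day 4 (-0.69 ± 0.20, adjusted p = 0.0375), and 1.12 and 1.25 then 1.43 and 1.12 in WT. Pcdhga12 (312 bp downstream) had 2.17 and 2.15 in K20R at day 0 and 1.19 and 1.54 at day 4 (-0.67 ± 0.21, adjusted p = 0.0491), and 1.56 and 1.97 then 1.73 and 1.93 in WT. By pileup limma called 0 higher in K20R (background 0.988%) and 1 lower (background 2.42%), the distal exon site of Pcdhb20 (-1.03), with 8 sites at an unadjusted p under 0.05. Quantile normalization gave 2 higher (background 3.53%) and 0 lower (background 3.44%), and on the pileup 0 higher (background 0.0796%) and 0 lower (background 0.0878%), with 15 and 7 sites at an unadjusted p under 0.05.

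The genotype difference itself changed between the days at 7 sites by limma, 4 upwards (background 4.84%) and 3 downwards (background 3.95%). After quantile normalization these were 4 (background 6.07%) and 7 (background 6.28%). By pileup 0 passed in the window and over the genome (background 0.0%), and 6 of the 76 sites had an unadjusted p under 0.05.

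Few of the calls held when any single library was left out. None did for the change of the genotype difference or for K20R between the days. Of the 25 genotype differences past the test at day 0, 6 did, namely Pcdha1, Pcdhac1, Pcdhgb5, Pcdhgb8, the site 46596 bp upstream of Pcdhb1 and the intron site downstream of Pcdhga12. Of the 25 at day 4, 3 did, namely Pcdha7, Pcdhgb4 and the Diaph1 site 60843 bp downstream of the Pcdhgc5 start. Each of these 9 was higher in K20R, and none of them passed by pileup on that day.

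H3K27ac was nearly absent from the variable promoters at day 4. There was 1 library per genotype, so no difference could be tested. In WT, 12 H3K27ac peaks lay in the window (32.1 kb), and at listed starts only Pcdhgc4 and Pcdhgc5 had a peak within 2 kb. In K20R there were 15 peaks (27.2 kb), with only Pcdhga1 reached. Over the genome 50.6% of protein-coding genes had a peak in WT and 51.8% in K20R. The peaks at listed starts were weak: fold enrichments were 3.79 near Pcdhgc4 and 3.04 at the Pcdhgc5 start in WT, and 3.48 in the first exon of Pcdhga1 in K20R. Pcdhgc5 was also within reach of the strongest WT peak of the window (chr18:37821404-37827933, 9.05). This peak began inside the first exon of Pcdhgc5, which ends at 37822134, and ran into the intron downstream. The nearest K20R peak began just past that exon, at 37822155.

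The stronger H3K27ac peaks lay mostly outside the first exons of listed genes, and each overlapped a peak of the other genotype. Upstream of Pcdhb1, over the pair of CTCF sites, the fold enrichment was 8.12 in WT (chr18:37217539-37218214) and 8.63 in K20R (chr18:37217511-37218246). At Taf7, a gene for a general transcription factor subunit between the beta and gamma clusters, it was 8.79 in WT and 10.2 in K20R. From the end of the first exon of Pcdhgc5 into the intron downstream, the WT peak of 6530 bp (9.05) overlapped K20R peaks of 1016 bp (4.58) and 4149 bp (7.22), both in the intron. Over the shared gamma exons, a WT peak of 11074 bp (chr18:37831570-37842643, 5.35) overlapped a K20R peak of 1633 bp (4.24). The Diaph1 peak over the CTCF sites 64104 and 67608 bp downstream of the Pcdhgc5 start was 6.45 in WT and 7.17 in K20R. As a check of the labelled tissue, H3K27ac marked the pluripotency genes Pou5f1, Nanog and Sox2 in both genotypes and the mesoderm genes T and Eomes in WT only. No peak lay at Mixl1, Mesp1, Pax6, Sox1, Neurod1, Sox17 or Foxa2, and of the fibroblast genes Thy1 had a peak in both and Col1a1 and Col1a2 in neither.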

How the data were processed

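ChIP-seq peak lists of 8 CTCF and 2 H3K27ac libraries were used. The 4 input samples were not analysed here. The authors trimmed reads (Trim Galore), aligned them to mm10 with Bowtie2, removed low mapping quality reads, duplicates and blacklisted regions, and brought the CTCF libraries to equal read numbers. MACS2 then called peaks in each library separately. The deposited lists give the fold enrichment of each peak, and its p-value and q-value as −log10. Fold enrichment is a ratio of pileup to local background, with a small constant added to both. The deposited score column was not used. Total reads are not in the lists. Pileup medians over the 36440 sites called in all lists were 32 to 56 reads. At equal read numbers these do not measure depth.

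Peaks overlapping by at least 1 bp were merged over the 8 CTCF lists. Pileup and background were recovered from fold enrichment and −log10 p (100% of peaks within a tolerance of 0.01). Starts came from RefSeq (57 genes) and GENCODE M21 (1 gene). Log2 fold enrichments, centred on each library's median, were fitted with limma 3.58.1 (R 4.3.3) over 36440 sites and 4 groups of 2, with Benjamini-Hochberg adjustment and 0.05 as the threshold. P-values measure the spread between these libraries. The code was tested on simulated data.

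The members and lists were chosen with earlier results of these data known. Named with values were the 3 strongest promoter sites of each subcluster, every site lost, gained or past the test, and intergenic sites in all 8 lists. Alternatives tried were quantile normalization, pileup, pileup with quantile normalization (chosen after seeing the data), percentiles of −log10 p, a minimum −log10 q of 5, equal list lengths, summit windows of 101 bp, other promoter distances, the replicate number as a block, and dropping single libraries. Sequences of the sites are not printed. Python 3.11.15, pandas 2.3.3 and numpy 2.4.6 were used.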

Additional observations from a re-analysis of the deposited data

Results flagged for a closer look

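At 7 sites the difference between K20R and WT itself differed between day 4 and day 0 (interaction term in limma, Benjamini-Hochberg adjusted over 36440 sites), 4 of them upwards (background 4.84%) and 3 downwards (background 3.95%). The change of the log2 genotype difference from day 0 to day 4 was 1.61 at the distal exon site of Pcdhb4 (adjusted p = 0.0178), where WT lost strength at day 4. It was 1.40 at the early exon site of Pcdha6 (adjusted p = 0.0185), 1.17 at the promoter of Pcdhb6 (adjusted p = 0.0416) and 1.00 at the Diaph1 site 60843 bp downstream of the Pcdhgc5 start (adjusted p = 0.042). It was -1.58 at the site 46596 bp upstream of Pcdhb1 (adjusted p = 0.0142), -1.36 at the distal exon site of Pcdhb20 (adjusted p = 0.0169) and -1.12 at the early exon site of Pcdha1 (adjusted p = 0.0498). At Pcdha6 and Pcdha1 the values mix upstream and early exon summits between libraries. By pileup none of the 7 passed, nor did any site of the genome, and 6 of the 76 sites had an unadjusted p under 0.05. Each of the 7 calls was lost on leaving out some single library.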

How the results depend on the processing

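The number of listed genes with a promoter summit in all lists (53) did not depend on any library. In single lists it was 53 or 54 within 2 kb and 54 within 3 kb. It ranged from 52 to 54 at a −log10 q of at least 5, and also with lists of one length. Strength calls did depend on the measure. Counts are given as higher and lower for day 0, day 4, the change of the genotype difference, WT between days and K20R between days. Quantile normalization gave 3 lower at day 0, 10 and 5 at day 4, 7 lower for the change, 15 and 10 in WT, and 2 and 0 in K20R. Pileup gave 0 and 2, 6 and 5, 0 and 0, 0 and 2, and 0 and 1. Pileup with quantile normalization, chosen after seeing the data, gave 0 and 0, 1 and 0, 0 and 0, 1 and 3, and 0 and 0. Percentiles of −log10 p gave 1 and 0, 4 and 1, 0 and 0, 5 and 2, and 0 and 0.

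Lists of equal length gave 1 lost and 1 gained site at day 0 and 0 and 0 at day 4. Summit windows gave 5 lost at day 0 and 6 at day 4. A −log10 q of at least 5 gave 0 gained at day 4, and left 6 H3K27ac peaks and 1 gene in WT and 5 and 0 in K20R. A score passed by 1% of shifted windows left 12 sites with a motif, of which 2 of the 62 promoter sites (both alpha, on the genes' strand) and 10 of the 15 sites elsewhere.

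Leaving out each library in turn gave 7 to 19 higher and 1 to 7 lower at day 0, 6 to 18 and 0 to 9 at day 4, 0 to 3 and 0 to 4 for the change, 0 to 11 and 1 to 6 in WT, and 0 to 7 and 0 to 5 in K20R. The fewest day 0 calls came without the first K20R day 0 library, and the fewest day 4 calls without the second WT day 4 library (6 and 0) or the first (7 and 2). Lost sites ranged from 0 to 6 at day 0 and from 3 to 9 at day 4, gained sites from 0 to 1 and from 1 to 4, and kept sites from 84 to 85 and from 76 to 82. Genes with a promoter summit stayed at 53 to 53.

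Signs turned at these sites. At day 0 pileup gave -0.50 at the distal exon site of Pcdhb20, and pileup with quantile normalization gave -0.51 there, -0.089 at Pcdhac1, -0.13 at Pcdhb4, -0.068 at Pcdhgb5 and -0.036 at the Diaph1 site 64104 bp downstream of Pcdhgc5. At day 4 it gave -0.21 at Pcdha4, and for the change 0.21 at the distal exon site of Pcdhb20. Between days in WT, pileup gave -0.17 at Pcdhac1 and -0.014 at the Diaph1 site at 32715 bp, and with quantile normalization -0.11 at Pcdhac1 and 0.060 at the distal exon site of Pcdhb18. The cause was not tested.

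Replicate numbers did not pair the libraries: deviations of libraries numbered 1 correlated at -0.034 to 0.0275 in 5 of 6 pairs, and at 0.322 between WT day 0 and K20R day 4. With a replicate block the counts were 18 and 7, 17 and 9, 5 and 4, 9 and 5, and 6 and 5.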
